A study of Mus musculus with 12 samples.

Results

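Freshly sorted Pax7-ZsGreen+ satellite cells of *Cxcr4* KO mice were compared with those of *Cxcr4* WT mice by RNA-seq, gene by gene and pathway by pathway. The comparison takes in 8 of the 12 libraries of the series, 4 KO and 4 WT, all that the labels give as quiescent, while the other 4 were made from cells kept in culture overnight. All mice carried 2 floxed *Cxcr4* alleles and the Pax7-ZsGreen reporter, and all received tamoxifen, 80 mg/kg by intraperitoneal injection on 5 days. The KO mice also carried Pax7-creERT2, a tamoxifen-inducible cre driven from *Pax7* and so active in satellite cells, and the WT mice did not. Cells came from adult hind limb muscle and were gated as ZsGreen+ and negative for propidium iodide, with no surface marker of other cell types in the gate described for RNA. The labels do not say whether each library is a separate mouse, so p-values measure only the spread between these libraries, which may in part be technical.

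CXCR4 is a G protein-coupled receptor for the chemokine CXCL12, and it signals mainly through inhibitory G proteins to phosphoinositide 3-kinase, small GTPases and MAP kinases. ACKR3 is a further receptor for CXCL12 that does not couple to G proteins in the usual way. Satellite cells are the stem cells of skeletal muscle, lie between the fibre and its basal lamina, and are marked by the transcription factor PAX7. In resting muscle most of them are out of the cell cycle, a state tied to Notch signalling and to the calcitonin receptor, and enzymatic dissociation is known to induce immediate early genes in them.

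Between 12775593 and 23717013 reads per library were counted on genes. Values are given as CPM, the count of a gene relative to all counts of its library, with library sizes scaled by edgeR's TMM method. CPM were not divided by gene length, so they are compared between libraries and not between genes. The markers of satellite cells were present in every library, with *Myf5* between 81.3 and 135 CPM, *Cdh15*, which encodes M-cadherin, between 124 and 218, *Itga7* between 212 and 551, and *Chodl* between 507 and 704. KO replicate 2 stood apart from the other libraries on the second principal component (20.9% of the variance over 13636 genes), and on the first (35.1%) WT replicate 2 and KO replicate 4 lay at the opposite ends.

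Markers of other cells varied widely among libraries of 1 genotype. The 24 endothelial genes summed to 4638, 4629, 2180 and 2363 CPM in WT replicates 1 to 4, and to 5400, 1817, 4731 and 1040 CPM in KO replicates 1 to 4. The 24 genes of fibroadipogenic progenitors, the connective tissue cells of muscle, summed to 2968, 3216, 2761 and 2543 CPM in WT and to 1458, 1861, 5181 and 2969 CPM in KO. For 24 genes of blood cells the sums were 181, 204, 343 and 544 CPM in WT, against 428, 560, 194 and 1003 CPM in KO. KO replicates 1 and 3 were rich in endothelial RNA, KO replicates 2 and 4 poor in it, KO replicate 3 held the most stromal RNA, and KO replicate 4 the most blood RNA. The covariates used below are means of log2 CPM, which can order the libraries differently from the sums. For the fibroadipogenic list that mean was lowest in KO replicate 4, at 4.14, next to KO replicate 1 at 4.15. The defining markers were detected in every library, *Pecam1* between 70.2 and 315 CPM, *Pdgfra* between 3.07 and 9.97, and *Ptprc*, which encodes CD45, between 2.24 and 25.8. In libraries of sorted bulk cells, fewer cells of a type and less RNA per cell cannot be told apart.

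**Figure D1:**
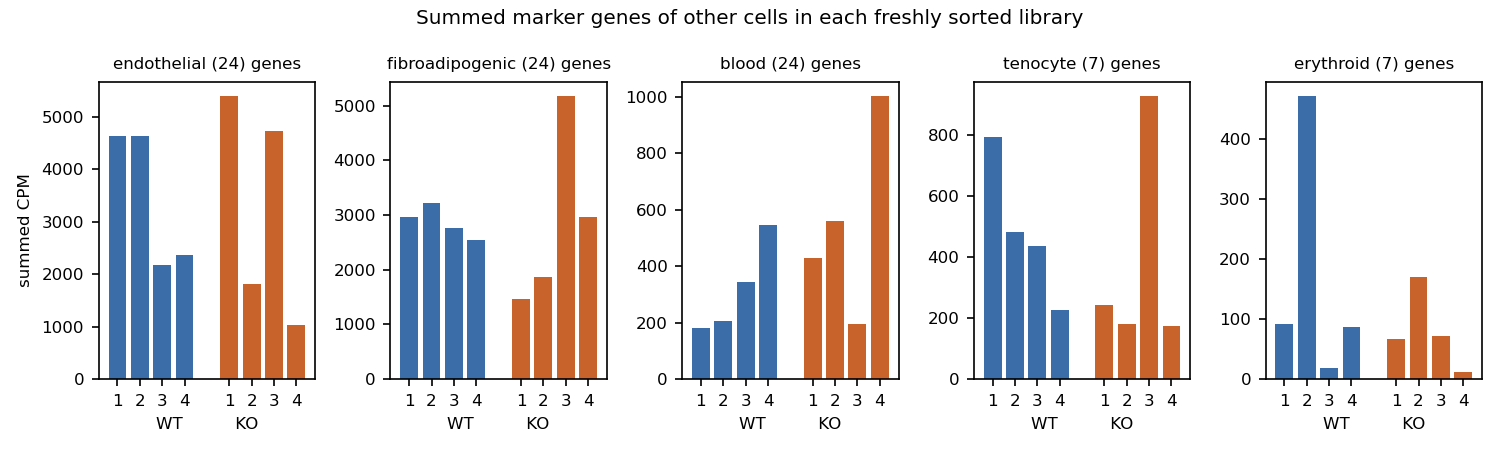
Summed CPM (y axis) of marker genes of 5 other cell types in each WT (blue) and KO (orange) library, numbered by replicate. Endothelial sums run from 1040 to 5400 CPM among the KO libraries alone, and the blood sum is highest in KO replicate 4 at 1003 CPM.

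The targeted gene was examined first. *Cxcr4* lies on chromosome 1 (GRCm38, 128588199 to 128592293 in the GENCODE annotation, minus strand) and has 2 exons in its main transcript. Exon 2, which cre removes, spans 128588199 to 128589901 and holds 94.3% of the transcript and 98.1% of the 1077 coding bases. The first 60 coding bases are shown because they mark what a deleted allele keeps, with exon 1 in lower case and the start of exon 2 in capitals, from the transcript annotated on GRCm38.
Cxcr4: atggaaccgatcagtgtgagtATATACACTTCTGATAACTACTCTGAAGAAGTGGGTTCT
Only 21 coding bases stand in exon 1. The level of *Cxcr4* was 61.2, 59.1, 89.6 and 112 CPM in WT replicates 1 to 4, and 17.6, 21.2, 12.5 and 17.1 CPM in KO replicates 1 to 4. Every KO library lay below every WT library, and WT replicates 3 and 4 were well above WT replicates 1 and 2. The fitted log2 ratio of KO to WT was -2.24 (95% interval -2.88 to -1.59) and it passed adjustment over all genes (edgeR quasi-likelihood test, adjusted p = 0.00477). With the mean log2 CPM of the endothelial, fibroadipogenic or blood markers as covariate it was -2.27, -2.47 and -2.47. Among the KO libraries the residual level was lowest in KO replicate 3, which also had the least blood RNA, and highest in KO replicate 2. KO replicate 4, with the most blood RNA, was at 17.1 CPM, below KO replicate 1 at 17.6 CPM. Blood cells are known to express *Cxcr4*, and the paper names satellite cells that escape recombination. The part of either in the residual level was not tested.

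**Figure D2:**
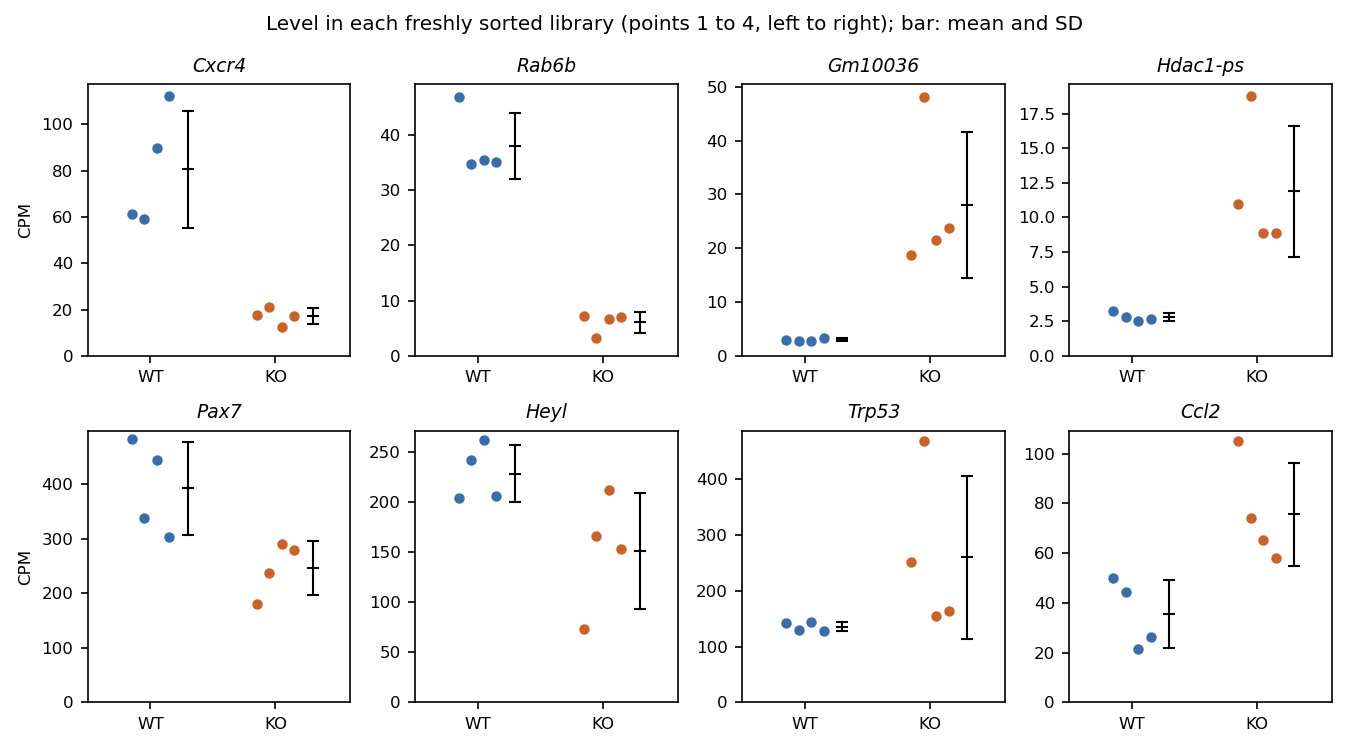
CPM (y axes, from 0) of 8 genes in each WT (blue) and KO (orange) library, with replicates 1 to 4 from left to right and the mean with its SD (n = 4) as a black bar. *Cxcr4*, *Rab6b*, *Gm10036* and *Hdac1-ps* are clear of overlap by a wide margin, while for *Pax7*, *Trp53* and *Ccl2* the nearest WT and KO libraries lie close together and for *Heyl* they overlap.

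Few genes differed between the genotypes in freshly sorted cells. Of 25771 genes tested, 4 (0.0155%) passed an adjusted p of 0.05 with more than a 2-fold difference and a mean count over 10, and they were *Cxcr4*, *Rab6b*, *Gm10036* and *Hdac1-ps*. An unadjusted p under 0.05 was found for 448 genes (1.74%), 281 of them higher in KO (1.09%) and 167 lower (0.648%). All KO libraries lay above all WT libraries for 224 genes (0.869%) and below them for 213 genes (0.827%). The precision was enough to bound most expressed genes. Among the 6689 genes between 10 and 100 CPM, the 95% interval of the KO to WT ratio lay within 2-fold either way for 91.5%, and among the 1843 genes above 100 CPM for 95.4%. Between 1 and 10 CPM, with 8444 genes, the share was 21.4%, so that for most genes at low level a 2-fold difference could not be told from the spread between libraries.

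*Rab6b* encodes a small GTPase of the Golgi that is best known from neurons and acts in transport from the Golgi to the endoplasmic reticulum. It was at 46.9, 34.6, 35.4 and 35.0 CPM in the WT libraries and at 7.25, 3.21, 6.73 and 7.04 CPM in the KO libraries. WT replicate 1 was the highest and KO replicate 2 the lowest. *Rab6b* fell by 2.64 on the log2 scale (adjusted p = 0.00058 from edgeR's test), and in the 20 other fits the difference lay between -2.74 and -2.43 with adjusted p-values up to 0.00979. The paralog *Rab6a*, expressed in most cells, was at 254 ± 28.3 CPM in WT against 270 ± 69.2 CPM in KO (means with SD, n = 4 per genotype), and the groups overlapped. Of 30 genes of Rab GTPases and Golgi traffic, *Rab6b* was the only one with an unadjusted p under 0.05, and the median log2 ratio of the list was -0.02 beside 0.02 over all genes tested. On chromosome 9, 16 other genes of at least 1 CPM start within 1 Mb of *Rab6b*. Next to it, the antisense gene *Gm47468*, 29 kb away, had a log2 ratio of -2.09 (SE 0.86) at a mean of 1.55 CPM, and *Slco2a1*, a prostaglandin transporter gene 123 kb away, one of -0.79 (SE 0.31). Both had an unadjusted p under 0.05, an adjusted p of 1 and overlapping libraries. The remaining 14 neighbours had unadjusted p-values over 0.05, and among all genes tested 1.74% were under it.

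The genes that rose are both processed pseudogenes, intronless copies of other genes. *Gm10036*, a copy of *Rpl11*, was at 3.03, 2.84, 2.85 and 3.42 CPM in WT and at 18.7, 48.2, 21.5 and 23.8 CPM in KO. *Hdac1-ps*, a copy of the histone deacetylase gene *Hdac1* on chromosome 17 (78491582 to 78493025), was at 3.24, 2.84, 2.54 and 2.7 CPM in WT and at 11, 18.8, 8.85 and 8.88 CPM in KO. In both, the WT libraries were tightly grouped and KO replicate 2 was the highest. *Gm10036* rose by 3.2 on the log2 scale (SE 0.31) and *Hdac1-ps* by 2.06 (SE 0.31), with adjusted p-values of 4.92e-05 and 0.0124 from edgeR's test. With fewer libraries the adjusted p of *Hdac1-ps* rose over 0.05, to 0.13 at most, when WT replicate 1, 2, 3 or 4 or KO replicate 2 was left out. Its log2 ratio stayed between 2.02 and 2.14 without single WT libraries and was 1.76 without KO replicate 2.

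*Hdac1-ps* differs from the coding sequence of *Hdac1* at 9 of 1444 aligned bases, with an identical stretch of up to 450 bases, so many reads match both. The 60 bases with the most differences are shown to let the reader see how little separates the copy from its parent. They are bases 427 to 486 of the copy and bases 511 to 570 of the *Hdac1* transcript, with the 5 differing bases in capitals.
Hdac1-ps: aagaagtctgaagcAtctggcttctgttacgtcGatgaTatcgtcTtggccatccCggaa
Hdac1: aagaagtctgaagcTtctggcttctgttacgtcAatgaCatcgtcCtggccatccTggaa
*Hdac1* itself was at 54.6, 53.6, 55.7 and 60.7 CPM in WT and at 51.9, 35.5, 42.7 and 44.4 CPM in KO, where every KO library was below every WT library (log2 ratio -0.36, 95% interval -0.77 to 0.04). KO replicate 2 had the highest level of the copy and the lowest level of the parent. The summed CPM of *Hdac1* and its copy, on a log2 scale, was 5.88 ± 0.07 in WT and 5.79 ± 0.13 in KO (SD, n = 4 each, exact permutation test, two-sided p = 0.257). The copy held 4.81 ± 0.63% of the sum in WT and 21.5 ± 8.75% in KO. For *Rpl11*, a ribosomal protein gene, and *Gm10036*, the log2 sum was 7.03 ± 0.33 and 7.24 ± 0.25 (SD, n = 4 each, exact permutation test, two-sided p = 0.371), with shares of the copy of 2.35 ± 0.44% in WT and 18.0 ± 6.37% in KO. Neither share overlapped between the genotypes, as the copies were picked for their difference. How reads that match several genes were counted is not given in the sources used here.

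**Figure D3:**
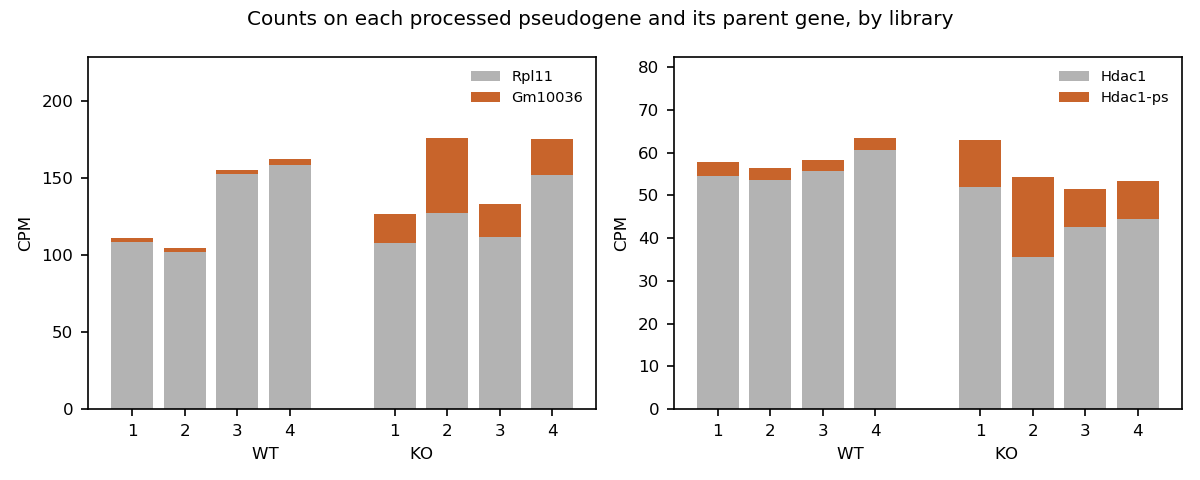
CPM (y axis, from 0) counted on *Rpl11* and *Hdac1* (grey) and stacked on them the CPM counted on the processed pseudogenes *Gm10036* and *Hdac1-ps* (orange), for each library numbered by replicate. The copy takes between 1.84 and 5.60% of the sum in WT libraries and between 13.6 and 34.6% in KO libraries.

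*Rpl11* and *Hdac1* both lie on chromosome 4, at 136028265 to 136053428 and 129516104 to 129542713. They start 3.71 and 10.22 Mb from the start of *Pax7* (139737062 to 139833528), the gene that drives cre in the KO mice. *Gm10036* itself lies on chromosome 18 (15832794 to 15833327). Processed pseudogenes were matched to parent genes as a group, after these values had been seen. Of 2410 tested, 1466 had a tested parent gene at 90% identity or more, and 17 of these 1466 (1.16%) were higher in KO at an unadjusted p under 0.05. Among the 37 whose parent starts within 20 Mb of *Pax7*, 5 were higher and 0 lower at that p by edgeR's test, and among the 1429 with parents elsewhere 12 were higher and 9 lower. As a group the 37 differed little, with 20 positive log2 ratios and a median of 0.16, beside 766 of 1429 and 0.07 elsewhere. Other copies of *Rpl11* had ratios above and below 0, with *Gm10288* at 0.17 and *Gm6905* at -4.36. The 5 were *Gm10036*, *Hdac1-ps*, a further copy of *Hdac1* named *Gm4864*, *Gm11841*, a copy of the poly(A)-binding protein gene *Pabpc4*, and *Nudc-ps1*, a copy of the nuclear migration gene *Nudc*. *Gm10036* and *Hdac1-ps* prompted this match, so their place among the 5 was fixed in advance. *Nudc-ps1*, on chromosome 8, was at 1.31, 1.21, 0.439 and 0.626 CPM in WT and at 2.35, 2.25, 1.99 and 1.65 CPM in KO. *Gm4864*, on chromosome 12, was at 0.0877 to 1.14 CPM in WT against 2.58 to 3.50 CPM in KO. In all 5 the KO libraries were above the WT libraries, beside 0.869% of all genes tested, but the 5 were picked as higher in KO. The mean of *Gm11841* was only 0.489 CPM. The parents *Rpl11*, *Nudc* and *Pabpc4* had log2 ratios of -0.06, 0.13 and 0.06.

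Genes of chromosome 4 near *Pax7* held a larger share of the small p-values than genes elsewhere. Over 10805 genes with a position and a mean of at least 5 CPM, 99 (0.916%) had an unadjusted p under 0.05 and 114 (1.06%) had WT and KO libraries that did not overlap. Within 20 Mb of *Pax7* these were 14 and 10 of 326 genes, or 4.29% and 3.07%. On the rest of chromosome 4, 0 of 336 genes had such a p in edgeR's test and 5 (1.49%) did not overlap, and on the other chromosomes the counts were 85 (0.838%) and 99 (0.976%) of 10143. The share was uneven among whole chromosomes. It was highest on chromosome 13, at 2.2% (8 of 364 genes), followed by chromosome 4 at 2.11% (14 of 662), and lowest on X, at 0%. The 14 genes included 4 that are known from macrophages, *C1qa*, *C1qb*, *C1qc* and *Pla2g2d*, and without them 10 of 322 (3.11%) remained. Within 20 Mb of *Cxcr4* on chromosome 1, where both genotypes carry the floxed allele, 3 of 101 genes (2.97%) had such a p, and *Cxcr4* itself was 1 of them. When single libraries were left out, the window of *Pax7* held between 8 and 17 genes at that p (8 without WT replicate 1 or WT replicate 3, 9 without WT replicate 2), or 2.45 to 5.21%, against 0.582 to 1.85% of all other genes. These positions were looked at after the values had been seen. The KO mice carry the cre allele with the chromosome 4 DNA linked to it and the WT mice do not, so that an effect of this region and loss of *Cxcr4* cannot be told apart here.

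**Figure D4:**
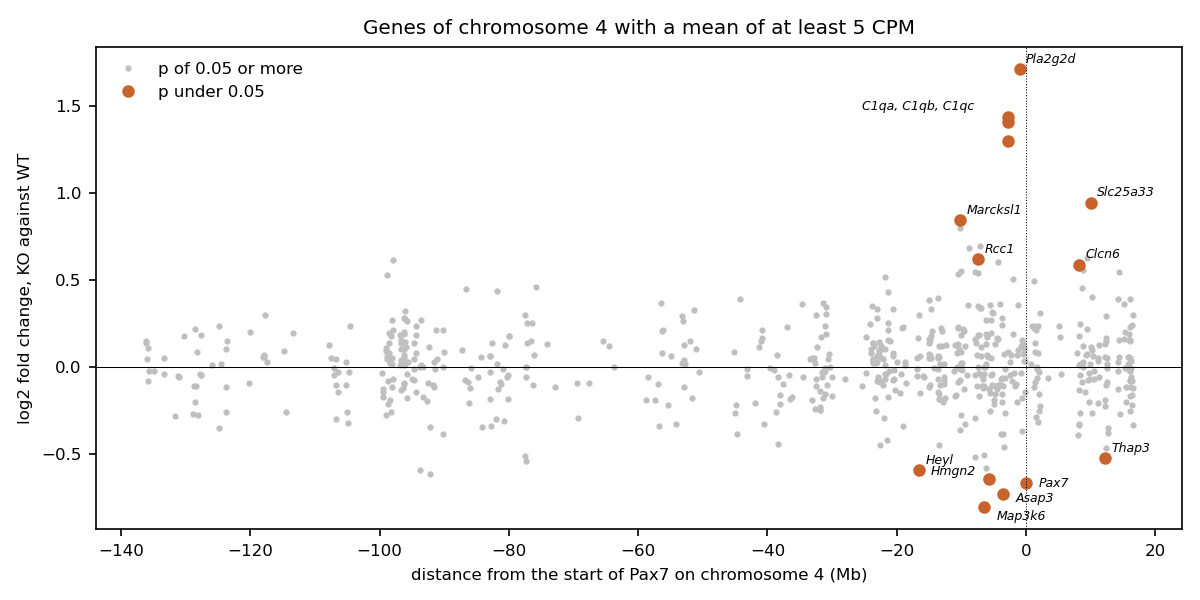
Fitted log2 ratio of KO to WT (y axis) for genes of chromosome 4 with a mean of at least 5 CPM, by the distance of their start from that of *Pax7* (x axis, Mb). The 14 genes with an unadjusted p under 0.05 (orange, named) all lie within 20 Mb of *Pax7*, and 0 of the 336 genes farther away reach it.

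Among these, *Marcksl1*, an actin-binding protein gene 10.22 Mb from *Pax7*, was at 126, 165, 134 and 152 CPM in WT and at 163, 281, 287 and 304 CPM in KO, with a log2 ratio of 0.84 (SE 0.22). Only KO replicate 1 fell within the WT range. *Rcc1*, the exchange factor of the Ran GTPase, was at 26.4 to 28.3 CPM in WT against 38.4 to 48.5 CPM in KO, a log2 ratio of 0.62 (SE 0.21). *Map3k6*, a stress kinase gene, was at 295 to 381 CPM in WT and at 190, 88.7, 179 and 284 CPM in KO (log2 ratio -0.80, SE 0.28). Among the other genes of the window without overlap, *Asap3*, a GTPase-activating protein of Arf proteins, had a log2 ratio of -0.73, *Slc25a33*, a mitochondrial nucleotide carrier, one of 0.94, and *Clcn6*, an endosomal chloride transporter, one of 0.59. *Id3*, which encodes an inhibitor of MyoD-family factors, was at 699 to 901 CPM in WT against 571 to 628 CPM in KO, with a log2 ratio of -0.39 (95% interval -0.79 to 0.02). In edgeR's test each of these had an adjusted p of 1, and none passed by DESeq2.

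*Pax7* itself was at 482, 337, 444 and 303 CPM in WT and at 181, 237, 290 and 279 CPM in KO. The groups did not overlap, but WT replicate 4 at 303 and KO replicate 3 at 290 CPM were close. Its log2 ratio was -0.67 (95% interval -1.15 to -0.18, adjusted p = 1). Leaving out single libraries moved the ratio to between -0.77 and -0.54. With the endothelial, fibroadipogenic or blood list as covariate it was -0.69, -0.53 and -0.58. Since cre is expressed from *Pax7* in the KO mice alone, the allele and a difference in the cells cannot be told apart.

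Of 48 genes of satellite cell identity and quiescence, 2 had an unadjusted p under 0.05, *Pax7* and *Heyl*, both lower in KO. At that p 0 were higher, and among all genes tested 0.648% were lower and 1.09% higher. Both *Pax7* and *Heyl* lie in the chromosome 4 window described above, and 0 of the list passed adjustment by edgeR or DESeq2. The list had a median log2 ratio of -0.08, with 32 of 48 members negative, beside a median of 0.02 over all genes tested. *Heyl*, a Notch target gene that also lies on chromosome 4, was at 204, 242, 262 and 207 CPM in WT and at 73.8, 166, 213 and 154 CPM in KO (log2 ratio -0.59, SE 0.25, and -0.37 without KO replicate 1, where its unadjusted p was over 0.05). *Calcr*, the calcitonin receptor gene, was at 88.7, 86.0, 107 and 98.8 CPM in WT and at 31.7, 71.4, 81.0 and 87.7 CPM in KO (log2 ratio -0.49, 95% interval -1.12 to 0.15). KO replicate 1 was the lowest library for *Pax7*, *Heyl* and *Calcr* alike. *Myf5* was at 128 ± 7.36 CPM in WT against 101 ± 17.6 CPM in KO (means with SD, n = 4 per genotype), *Chodl* at 631 ± 15.2 and 581 ± 94.0 CPM, and *Cdh15* at 167 ± 9.42 and 178 ± 39.6 CPM. *Myod1*, the activation and commitment factor, ranged from 813 to 3097 CPM in WT and from 1026 to 2945 CPM in KO, so that its 95% interval, a log2 ratio of -0.70 to 0.95, leaves differences of nearly 2-fold unresolved. *Sdc4*, a syndecan marker, was bounded more tightly, with an interval from -0.45 to 0.48.

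In the Notch pathway, which holds satellite cells in quiescence, 1 of 21 genes, *Heyl*, had an unadjusted p under 0.05, beside 1.74% of all genes tested. The median log2 ratio was -0.12. *Hey1*, another target, was at 115, 111, 158 and 162 CPM in WT and at 39.1, 98.9, 127 and 132 CPM in KO, and the receptor gene *Notch3* at 834 to 982 CPM in WT and at 367, 771, 904 and 997 CPM in KO. In both, KO replicate 1 was low and the other KO libraries overlapped with WT. When single libraries were left out, the median of the list ranged from -0.24 (without KO replicate 3) to 0.02 (without KO replicate 2).

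Around the deleted receptor, the ligand and the other receptor differed less than the libraries did. *Ackr3* was at 457, 503, 570 and 652 CPM in WT and at 393, 443, 418 and 536 CPM in KO, with a log2 ratio of -0.29 (95% interval -0.71 to 0.14). *Cxcl12* was at 268, 237, 121 and 125 CPM in WT and at 196, 95.9, 216 and 68.4 CPM in KO. Its 4 highest libraries, WT replicates 1 and 2 and KO replicates 1 and 3, were the same 4 that held the most endothelial RNA. The log2 ratio of *Cxcl12* was -0.38 (95% interval -1.15 to 0.39) and turned to 0.08 with the blood list as covariate. Blood and endothelial RNA ran in opposite directions over these libraries, so that the 2 cannot be told apart in this shift. *Rgs5*, a regulator of G protein signalling known from pericytes, followed the same libraries, at 974, 1024, 298 and 460 CPM in WT and 712, 331, 1066 and 171 CPM in KO. Of the 20 genes of receptors, ligands, arrestins, receptor kinases and regulators in this list, *Cxcr4* was the only one with an unadjusted p under 0.05, beside 1.74% of all genes tested. The median log2 ratio of the list was -0.08.

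Downstream, 0 of 40 genes of inhibitory G protein, phosphoinositide 3-kinase, Rac and MAP kinase signalling had an unadjusted p under 0.05 by edgeR's test, and 0 passed adjustment by DESeq2. Their median log2 ratio was 0.015, beside 0.025 over all genes, and for 29 of the 40 the 95% interval lay within 2-fold. *Gnai2*, which encodes an inhibitory G protein subunit, was at 379 ± 43.3 CPM in WT against 380 ± 66.7 CPM in KO (means with SD, n = 4 per genotype), *Cdc42* at 458 ± 81.6 and 467 ± 63.8 CPM, and *Stat3* at 1394 ± 315 and 1397 ± 291 CPM. The highest ratios were those of *Pik3cg*, *Rac2* and *Dock2*, 3 genes known from leukocytes, at 1.11, 0.95 and 0.87 on the log2 scale. *Rac2* was at 3.13, 2.13, 5.22 and 7.71 CPM in WT and at 7.20, 16.5, 1.08 and 10.7 CPM in KO, lowest in the KO library with the least blood RNA, and with the blood list as covariate its log2 ratio was -0.25.

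Genes of the cell cycle and of p53 held 1 member with an unadjusted p under 0.05, *Trp53*, which encodes p53. *Trp53* was at 142, 130, 144 and 128 CPM in WT and at 252, 469, 156 and 164 CPM in KO. All KO libraries were above all WT libraries, but KO replicates 3 and 4 only just, and the log2 ratio of 0.93 (SE 0.28, adjusted p = 1) was 0.49 without KO replicate 2. The p53 target genes *Cdkn1a*, *Mdm2* and *Bbc3* had unadjusted p-values over 0.05. *Cdkn1a*, the p21 gene, was at 926 ± 146 CPM in WT against 1033 ± 157 CPM in KO (means with SD, n = 4 per genotype), *Mdm2* at 137 ± 27.9 and 156 ± 16.8 CPM, and *Bbc3* at 23.4 ± 5.33 and 14.9 ± 4.09 CPM. Of 22 genes of apoptosis and p53 and of 24 regulators of the G1 phase, *Trp53* was the one with such a p in each list, beside 1.74% of all genes tested. The medians of these lists were 0.01 and 0.09. Of 22 genes of DNA replication 0 had an unadjusted p under 0.05 (edgeR, and 0 after adjustment by DESeq2), with a median log2 ratio of 0.10. *Mcm3*, a subunit of the replicative helicase, came nearest, at 8.46, 15.3, 7.19 and 10.7 CPM in WT and 19.1, 13.0, 16.2 and 14.4 CPM in KO (log2 ratio 0.60, 95% interval -0.02 to 1.21). Of 16 mitosis genes, for 4 of which the interval lay within 2-fold, 14 had positive ratios and 0 an unadjusted p under 0.05 (edgeR, and 0 after adjustment by DESeq2), with a median of 0.25 that was -0.01 without KO replicate 3. *Mki67*, a proliferation marker, was at 34.2, 51.1, 17.8 and 20.3 CPM in WT and at 10.3, 17.3, 70.0 and 46.1 CPM in KO.

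A list of 23 genes of NF-kB signalling and chemokines held the largest share of small p-values among the pathway lists. The lists were chosen with earlier results of these data known, so this rank and these shares are not an independent test. In it 4 genes were higher in KO at an unadjusted p under 0.05 and 0 lower, beside 1.09% and 0.648% of all genes tested, 20 of 23 ratios were positive, and the median log2 ratio was 0.21, staying between 0.21 and 0.33 when single libraries were left out. The summed CPM of the list were 6128, 6012, 5618 and 6021 in WT and 6258, 6728, 6843 and 8537 in KO. *Ccl2*, which encodes a chemokine for monocytes, was at 50, 44.3, 21.5 and 26.4 CPM in WT and at 105, 74.1, 65.2 and 58.2 CPM in KO, a log2 ratio of 1.09 (SE 0.39). Its neighbour *Ccl7* was at 23.0, 16.0, 19.2 and 22.4 CPM in WT and at 50.7, 42.4, 22.3 and 53.2 CPM in KO, with a log2 ratio of 1.06 (SE 0.34). The neutrophil chemokine gene *Cxcl2* was at 129, 118, 84.8 and 120 CPM in WT and at 108, 236, 213 and 285 CPM in KO, with a log2 ratio of 0.90 (SE 0.32). *Cxcl5* was at 0.851 to 5.06 CPM in WT against 5.53 to 11.3 CPM in KO, a log2 ratio of 1.32 (SE 0.59).

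For all 4 edgeR gave an adjusted p of 1 and DESeq2 none under 0.05, while *Ccl2* and *Ccl7* passed with edgeR when genes with low counts were not filtered out. In KO replicate 3, whose blood markers summed to 194 CPM and so lay within the WT range, *Ccl2* was at 65.2 CPM and *Cxcl2* at 213 CPM, above all WT libraries, while *Ccl7* at 22.3 CPM lay within the WT range. The same library held the most fibroadipogenic RNA, at 5181 CPM, and which cells the chemokine RNA came from was not tested. With the blood list as covariate in the 8 libraries, the log2 ratios of *Ccl2*, *Ccl7* and *Cxcl2* were 1.33, 0.77 and 0.81, beside 1.09, 1.06 and 0.90 without it. With the fibroadipogenic list they were 1.13, 0.65 and 0.92, and with the endothelial list 1.24, 1.00 and 0.79. Other members of the pathway differed less. *Cxcl1* was at 1017 ± 139 CPM in WT against 1481 ± 525 CPM in KO (means with SD, n = 4 per genotype), *Nfkbia*, the feedback inhibitor of NF-kB, at 568 ± 136 and 621 ± 77.4 CPM, *Il6* at 101 ± 43.6 and 95 ± 56.6 CPM, and *Tnf* at 8.67 ± 3.95 and 9.25 ± 4.87 CPM.

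Immediate early genes, which dissociation induces, were high in all libraries, and 23 of 28 had negative ratios, though 0 had an unadjusted p under 0.05 by edgeR and 0 passed adjustment by DESeq2. *Fos* was at 4983, 3908, 3822 and 3342 CPM in WT and at 2804, 3332, 3262 and 2359 CPM in KO, where WT replicate 4 and KO replicate 2 almost met, with a log2 ratio of -0.45 (95% interval -1.04 to 0.15). For *Fosb* the groups did not overlap either, at 8845 to 12392 CPM in WT against 6705 to 8524 CPM in KO. *Egr1* was at 8750 ± 1034 and 7366 ± 764 CPM (means with SD, n = 4 per genotype) and overlapped. The median of the list was -0.14, and between -0.21 and -0.10 without single libraries. Of 16 heat shock genes 13 were negative, with a median of -0.22, or -0.01 without WT replicate 4, and 0 at an unadjusted p under 0.05 (edgeR, and 0 after adjustment by DESeq2). *Hspa1a*, an inducible HSP70 gene, was at 2064, 1973, 1979 and 2941 CPM in WT and at 492, 1641, 1846 and 1881 CPM in KO, where KO replicate 1 was lowest.

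For genes of motility and adhesion, on which CXCR4 acts in other cells, the 39 tested had a median log2 ratio of -0.02, with 0 at an unadjusted p under 0.05 by edgeR and 0 after adjustment by DESeq2, and for 31 of them the interval lay within 2-fold. *Actb*, the beta-actin gene, was at 2685 ± 453 CPM in WT against 2691 ± 241 CPM in KO (means with SD, n = 4 per genotype). For 25 genes of the niche matrix the median was -0.06 with the same 2 counts of 0, and it went from -0.33 without KO replicate 3 to 0.15 without KO replicate 1. *Sparc*, a matrix protein gene of stromal cells, was at 1113, 1552, 810 and 1132 CPM in WT and at 267, 583, 2166 and 1412 CPM in KO, highest in the KO library with the most fibroadipogenic RNA. Of 35 growth factor receptors and their ligands 1 had an unadjusted p under 0.05, beside 1.74% of all genes tested, and the median was -0.04. This gene was *Lgr5*, an R-spondin receptor gene, at 1.04 to 1.93 CPM in WT against 1.75 to 5.60 CPM in KO, where the groups overlapped. *Fgfr4* was at 518 ± 45.9 CPM in WT against 484 ± 26.7 CPM in KO (means with SD, n = 4 per genotype).

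The remaining pathway lists had no gene at an unadjusted p under 0.05 by edgeR, and 0 after adjustment by DESeq2. The 23 interferon genes had a median log2 ratio of 0.15, or -0.16 without KO replicate 1, with *Irf7* at 46.1, 50.1, 36.0 and 35.0 CPM in WT and at 95.6, 35.1, 50.9 and 36.2 CPM in KO, where KO replicate 1 alone was above the WT range, and without it the ratio of *Irf7* was -0.04. Medians were 0.09 for 25 genes of oxidative phosphorylation, -0.01 for 20 genes of glycolysis, 0.01 for 30 ribosomal protein genes and -0.07 for 22 genes of histone deacetylases and chromatin. All 30 ribosomal protein genes had intervals within 2-fold, as did 23 of 25, 18 of 20 and 20 of 22 genes of the other lists in that order. *Ndufs1*, a subunit of respiratory complex I, was above all WT libraries in each KO library, at 13.0 to 18.3 CPM in WT against 20.1 to 22.5 CPM in KO (log2 ratio 0.36, 95% interval -0.08 to 0.80). *Hdac2*, the paralog of *Hdac1*, was at 35.0 ± 5.53 CPM in WT against 37.4 ± 5.80 CPM in KO (means with SD, n = 4 per genotype).

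**Figure D5:**
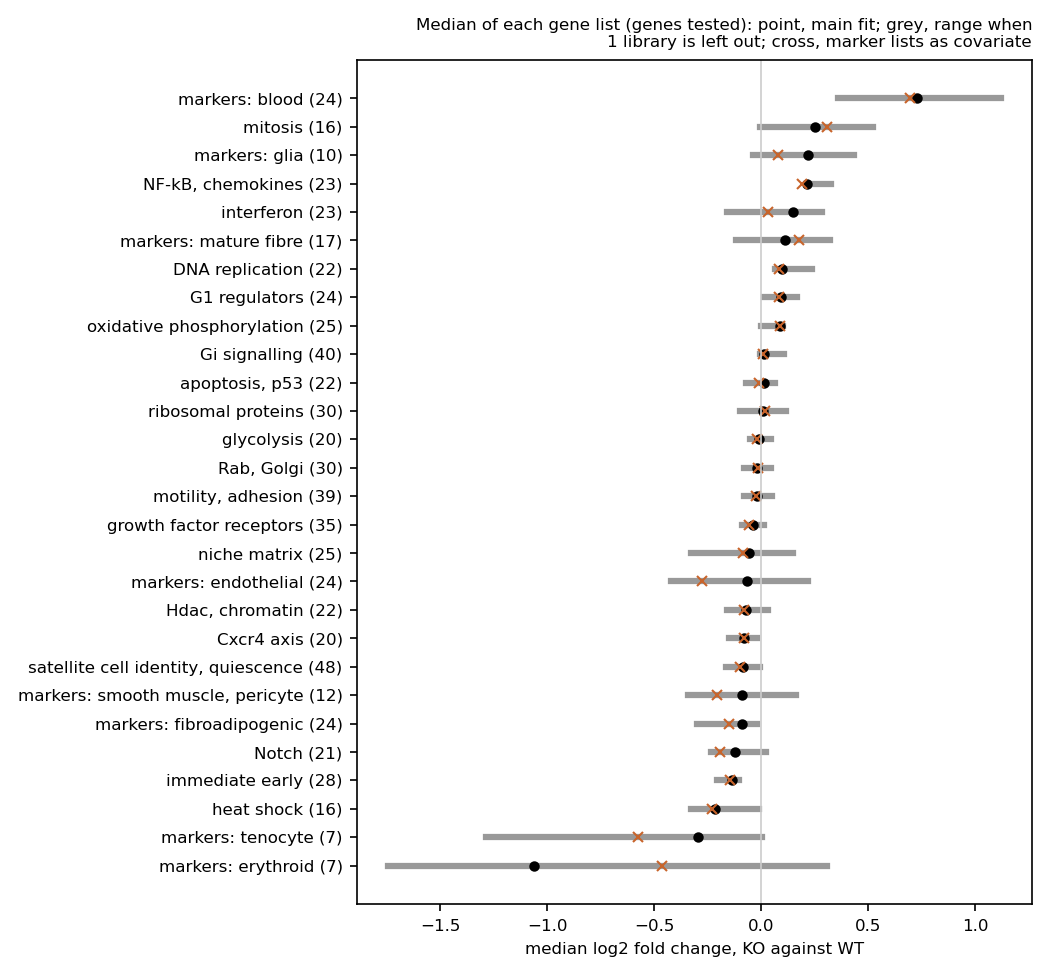
Median log2 ratio of KO to WT (x axis) of each gene list, with the number of genes tested in parentheses, in the fit on all libraries (point), over the fits that leave out 1 library (grey bar) and with the mean of the endothelial, fibroadipogenic and blood lists as covariate (cross), which varies little between libraries. Pathway medians lie between -0.22 and 0.25, and the blood markers have the highest median at 0.73.

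A few genes outside these lists showed the next smallest p-values without overlap between the genotypes, and none of them passed adjustment in edgeR's fit of the 12 libraries. *Gm47015*, *Krt76* and *Spock1* passed when genes with low counts were not filtered out. The long noncoding RNA *Gm47015* on chromosome 10 was at 2.87, 1.84, 2.85 and 2.55 CPM in WT and at 7.25, 10.5, 12.3 and 32.5 CPM in KO, with a log2 ratio of 2.62 and an adjusted p of 0.0606. DESeq2 called it on 12 and on 8 libraries and edgeR in its robust form and without KO replicate 1, and without KO replicate 4 the ratio was 1.98 (edgeR, adjusted p = 0.528). *Krt76*, a keratin gene, was at 10.5, 13.6, 10.2 and 33.1 CPM in WT and at 0.313, 3.07, 8.06 and 4.30 CPM in KO (log2 ratio -2.09, SE 0.61), where WT replicate 4 was high and KO replicate 1 near 0. *Spock1*, which encodes the secreted proteoglycan testican-1, was at 36.2, 30.7, 32.5 and 42.1 CPM in WT and at 2.82, 14.5, 18.3 and 17.3 CPM in KO (log2 ratio -1.42, SE 0.48), again lowest in KO replicate 1. The ratio of *Spock1* was between -1.53 and -1.32 with each marker list as covariate.

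The other genes named by this rule differed by less. Higher in KO were *Slc9a9*, an endosomal sodium-proton exchanger gene (log2 ratio 0.76), *Snrpa*, a U1 snRNP component (0.59), and *Jsrp1*, a protein of the muscle triad, at 42.1 to 61.1 CPM in WT against 72.1 to 79.6 CPM in KO (0.53). Lower in KO were *Gpam*, which encodes the first enzyme of glycerolipid synthesis (-0.71), *Frmd4b*, a scaffold protein gene (-0.69), and *Flrt1*, a transmembrane adhesion protein gene, at 82.7 to 123 CPM in WT against 42.6 to 81.5 CPM in KO (-0.64). All 6 had an adjusted p of 1.

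Among the pathway and marker lists, that of blood cells had the most members higher in KO at an unadjusted p under 0.05 by edgeR. The immunoglobulin genes described below are not in these lists. As the lists were chosen with earlier results of these data known, this rank is not an independent test either. All 24 markers had positive ratios, with a median of 0.73 on the log2 scale. The 6 higher at that p were *C1qa*, *C1qb*, *C1qc*, *Csf1r*, *Lyz2* and *Spi1*, beside 1.09% of all genes tested. By edgeR or DESeq2, 0 of the 24 passed adjustment. With no filter on low counts *C1qa*, *C1qb*, *C1qc* and *Csf1r* passed in edgeR. *Csf1r*, the macrophage growth factor receptor gene, was at 10.4, 10.4, 10.6 and 19.7 CPM in WT and at 14.1, 12.2, 12.6 and 83.4 CPM in KO, so that KO replicate 4 carried most of the difference. *C1qa* was at 5.69, 7.73, 9.21 and 24.9 CPM in WT and at 21.6, 14.3, 10.4 and 70.7 CPM in KO. Without KO replicate 4 the median of the blood list was 0.36, and without WT replicate 4 it was 1.12.

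Immunoglobulin transcripts, which mark B cells and plasma cells, stood out among genes at low level. The 47 immunoglobulin gene segments tested summed to 148, 38.5, 52.2 and 98.0 CPM in WT and to 535, 349, 11.6 and 358 CPM in KO. Of these, 13 were higher at an unadjusted p under 0.05 and 1 lower, beside 1.09% and 0.648% of all genes tested, and the median log2 ratio was 0.81. The filter on low counts keeps a gene that is high in only some libraries, so segments may have been tested through KO libraries alone. Segments may also come from the same cells, so the 13 are not separate observations. This group was not one of the planned lists. *Jchain*, which joins secreted antibody chains, was at 0.783, 0.213, 0.307 and 1.16 CPM in WT and at 15.5, 8.13, 0.125 and 6.42 CPM in KO. KO replicate 3 was below every WT library in both the sum and *Jchain*, and the other 3 KO libraries were above every WT library. Leaving out KO replicate 3 brought 7 genes past the thresholds, and the 3 beyond the 4 named above were *Jchain* and the immunoglobulin genes *Ighg3* and *Ighv1-26*.

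Among the other marker lists, the erythroid and tenocyte sums each had 1 library far above the rest of its genotype. Of 7 erythroid genes 1, *Alas2*, the first enzyme of heme synthesis in red cell precursors, was lower at an unadjusted p under 0.05, beside 0.648% of all genes tested. The erythroid list summed to 472.6 CPM in WT replicate 2 against 12 to 170 CPM elsewhere. The 7 tenocyte genes summed to 226 to 792 CPM in WT and to 244, 181, 929 and 176 CPM in KO. Smooth muscle and pericyte, glial and mature fibre genes summed to 1617 to 2938, 559 to 793 and 422 to 984 CPM in WT, and to 1589 to 2984, 462 to 844 and 537 to 1320 CPM in KO. None of these 3 lists, nor the endothelial, fibroadipogenic and tenocyte lists, held a gene at an unadjusted p under 0.05 by edgeR or past adjustment by DESeq2.

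The admixture of these cells was then put into the model, with the mean log2 CPM of a marker list as a covariate over the 8 libraries. *Cxcr4*, *Rab6b* and *Gm10036* passed all thresholds with the endothelial, fibroadipogenic and blood lists and with the mean of the 3. *Hdac1-ps* and *Gm47015* passed with the endothelial list and with the mean of the 3 lists, and not with the fibroadipogenic or the blood list. The log2 ratios with the latter lists were 1.98 and 2.00 for *Hdac1-ps* and 2.41 and 2.25 for *Gm47015*, and neither gene passed in the 8 libraries with no covariate, where they were 2.07 and 2.61. In all, 5, 3, 3 and 5 genes passed, against 3 in the 8 libraries with no covariate. The mean of the 3 lists ranged only from 4.33 to 4.75 over the libraries, because endothelial and blood RNA ran in opposite directions, and with it the blood list kept a median of 0.69, so that this covariate does not adjust for either.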

How the data were processed

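The authors deposited 1 table of raw read counts per gene for all 12 libraries, made by trimming with Trim Galore 0.6.0 and alignment with STAR 2.7.2a, and a table of FPKM that was not used here. How reads matching several genes were counted is not given in the sources used here. The counts, 12775593 to 23717013 per freshly sorted library, were fitted with edgeR 4.0.16 in R 4.3.3 (filterByExpr, TMM, quasi-likelihood, 12 libraries, a mean per group of genotype and state), and KO was compared with WT in the 8 freshly sorted ones. A gene was called at a Benjamini-Hochberg adjusted p under 0.05, more than 2-fold difference and a mean normalized count over 10. The script was tested on simulated data. Samples were grouped by their labels.

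Genes named are those called or listed by the study for these cells with the parents of pseudogenes, the 10 of smallest p in each direction among genes of at least 5 CPM without overlap, and members of each list by smallest p or highest level. *Marcksl1*, *Id3*, *Clcn6*, *Jchain*, *Ighg3*, *Ighv1-26*, *Gm4864*, *Gm11841*, *Nudc-ps1* and the neighbours of *Rab6b* were named after their values were seen. The members and lists were chosen with earlier results of these data known. Pseudogene transcripts were matched to parents with blastn 2.17.0 at 90% identity over 80% of their length, and positions follow GENCODE on GRCm38. Alternatives were DESeq2 1.42.0, other scaling and filters, the 8 libraries alone, marker lists as covariates, a replicate block and leaving out each library.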

Additional observations from a re-analysis of the deposited data

Results flagged for a closer look

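In each group of 4 libraries, the gap between the most extreme library and its nearest neighbour was compared with the group's range by Dixon's criterion at its 95% critical value. Of 280 groups, 20 exceeded it, and chance gives about 1 in 20 groups. Among the called genes, *Rab6b* was high in WT replicate 1 at 46.9 CPM and low in KO replicate 2 at 3.21 CPM, and the share of *Hdac1-ps* was high in KO replicate 2 at 34.6%. WT replicate 4 stood apart for *Krt76* at 33.1 CPM, *Gpam* at 20.7 CPM, *Lyz2* at 81.2 CPM, *Hspa1a* at 2941 CPM and *Il6st* at 771 CPM. KO replicate 4 stood apart for *C1qc* at 64.7 CPM, *Lyz2* at 164 CPM and *Fgfr1* at 2001 CPM. WT replicate 2 was high in erythroid RNA, with 472.6 CPM over the list, 32.1 CPM for *Hbb-bt*, 218 CPM for *Hba-a1* and 129 CPM for *Hbb-bs*. KO replicate 3 was high in tenocyte RNA, with 929 CPM over the list, 459 CPM for *Fmod* and 325 CPM for *Thbs4*, and had 63.4 CPM of *Rgcc*. KO replicate 1 was low in *Hspa1b* at 847 CPM.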

How the results depend on the processing

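*Cxcr4*, *Rab6b* and *Gm10036* passed all thresholds in each alternative fit. The count of 4 called genes was 48 with no filter on low counts and 3 to 7 when single libraries were left out, 7 without KO replicate 3, and 3 to 5 in the other fits. The cause of these changes was not tested. With the replicate block, 4 genes were called, 3 of them shared, with *Hdac1-ps* lost and *Ighv1-26* gained, and the log2 ratio of *Cxcr4* was -2.21. Deviations of same-numbered libraries correlated at 0.05, 0.122, -0.05 and 0.296, and those of differently numbered libraries at -0.208 to 0.075. The labels do not say whether libraries of the same number were prepared together, and this was not tested.

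Directions were counted where the log2 ratio was at least its SE. Those of 10 fits turned. With the fibroadipogenic list as covariate these were *Cd74* (-0.12), *Lfng* (-0.041) and *Rac2* (-0.341), and with the blood list *Cd74* (-0.155), *Rac2* (-0.253) and *Cxcl12* (0.081). Over the fits without single libraries, *Hbb-bt* ranged from -1.896 to 0.426, *Hba-a1* from -1.692 to 0.281 and *Hbb-bs* from -1.696 to 0.407, with the positive values without WT replicate 2, and *Irf7* from -0.037 without KO replicate 1 to 0.545. Between 1 and 10 CPM most intervals reach beyond 2-fold.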
